A study of Mus musculus with 12 samples.

Results

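Tumours given anti-B7-H3 and anti-PD1 antibodies together were compared with tumours given a control IgG. The comparison rests on 6 of the 12 libraries of the series, 3 per group, taken by their labels. All tumours were subcutaneous grafts of the mouse melanoma line YUMM2.1 in immunocompetent C57BL/6J mice, and treatment began when tumours measured 20 to 50 mm3. Bulk total RNA of at least 500 ng and an RNA integrity number of 7.0 or more was depleted of ribosomal RNA before library construction. The labels give no antibody clone, dose, schedule, age or sex, and do not say that each library came from its own mouse, so p-values measure the spread between these libraries, which may be technical. The labels state that the series set out to describe immune infiltrates.

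PD1, encoded by Pdcd1, is an inhibitory receptor of activated T cells, and its ligands are encoded by Cd274 and Pdcd1lg2. B7-H3, encoded by Cd276, is a relative of those ligands that many tumour and stromal cells carry. Interferon gamma from T and natural killer cells acts through the kinases Jak1 and Jak2 to raise Irf1, the guanylate-binding and immunity-related GTPases, and the genes of antigen presentation, and it also induces Cd274. Macrophages carry Fc receptors for the constant part of IgG, take up antibody-bound material and digest it with lysosomal proteases.

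The libraries of the groups differed before any gene was compared. In the isotype libraries, 12 predicted genes of satellite-like sequence held 92.5% ± 1.93 (SD, n = 3) of the matched reads, against 31.4% ± 2.22 (SD, n = 3) in the combination libraries. The other genes held 1340782 to 1512937 reads per isotype library and 2902813 to 3493133 per combination library. Olfactory receptor (Olfr) genes, which serve here as a measure of reads that fall on any sequence, held 6.86 ± 0.310 reads per kb of coding length in the isotype group and 0.649 ± 0.0420 in the combination group. Olfr93 alone held 18.01% to 23.15% of the Olfr reads in the isotype libraries and 50.26% to 52.63% in the combination libraries. The Olfr reads were thus not spread evenly. Without Olfr93 and Olfr1055 the rates were 5.26 ± 0.448 and 0.295 ± 0.0311, but the rates over all Olfr genes were used. At the rates over all Olfr genes background would make up 17.4% ± 0.447 of the reads outside the satellite-like genes in the isotype group and 0.734% ± 0.0223 in the combination group. Every isotype library lay on the same side of every combination library in each of these measures, and the exact two-sided permutation p was 0.1 for each, the smallest that 3 against 3 allows. What gave rise to the satellite and Olfr reads was not tested, and these differences cannot be told apart from the treatment.

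**Figure D1:**
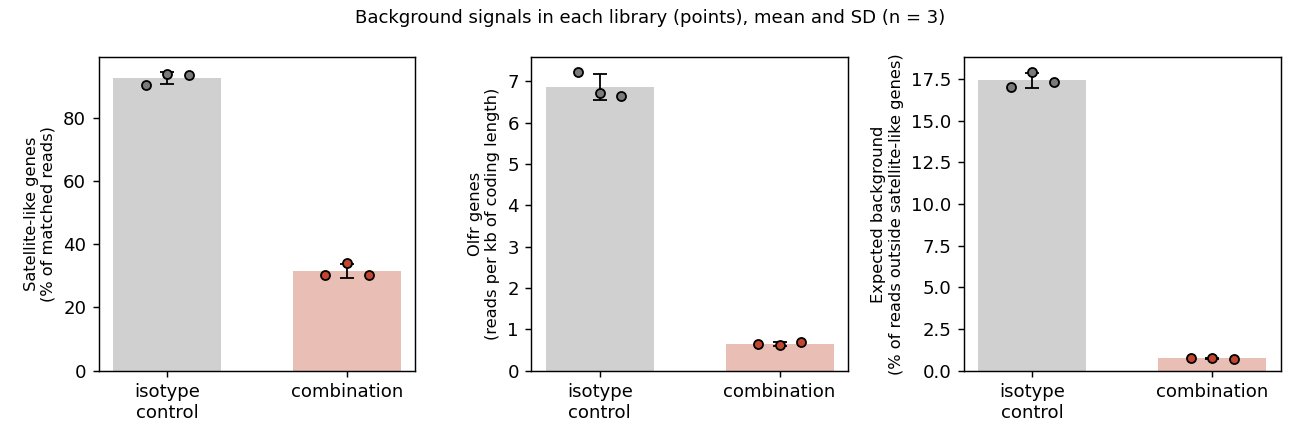
Share of reads on satellite-like genes (%), Olfr reads per kb of coding length, and expected background as a share of the other reads (%), for 3 isotype and 3 combination libraries. Points are libraries, bars are group means and error bars are SDs; the 3 isotype points lie above the 3 combination points in each panel.

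A gene's expected background was therefore set to its coding length times the Olfr rate of the library. A gene counted as above background in a group when its reads summed over 3 libraries were at least 3 times the expected number and at least 10 reads more. Levels are given as CPM beyond background, which are reads minus the expected background per 1000000 reads of the normalised library. Of 16088 genes tested by edgeR's quasi-likelihood test, 11312 were called (70.3%), 5496 of them higher (34.2% of all) and 5816 lower (36.2%), in the combination group on the counts as deposited, at an adjusted p under 0.05. CPM of the groups did not overlap for 71.7% of genes. The calls followed the background: among 884 genes whose expected background was under 10% of their isotype reads, 638 were called higher and 171 lower, whereas among 3493 genes at or under background 314 were called higher and 2224 lower.

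A call is named background-supported here when it was made in the same direction on the counts, after expected background had been subtracted, and after background had been added until every library held the same share. This left 4792 genes (29.8% of those tested), 2451 higher (15.2%) and 2341 lower (14.6%). Among the 4491 genes above background in both groups, 911 were higher and 499 lower, and when these genes alone were fitted 1059 were supported higher and 1075 lower, so the balance of directions depends on the genes fitted together. Their median log2 fold change was 0.58 on the counts and -0.05 after subtraction, so the fold changes after subtraction are given beside those on the counts. The supported calls held in all of the 21 settings that tested the gene for 1162 genes higher and 1136 lower. Of the 2341 lower genes, 1739 were not above background in the isotype group either. The Olfr genes illustrate this but are no independent check, since they set the background. Of 1189 Olfr genes, 263 passed the expression filter, which rests on the same counts. Among these 263, 174 (66.2%) were supported lower, 3 of them above background in the isotype group, and none was higher. A supported fall of a gene that was not above background in the isotype group is therefore not set apart from background here.

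**Figure D2:**
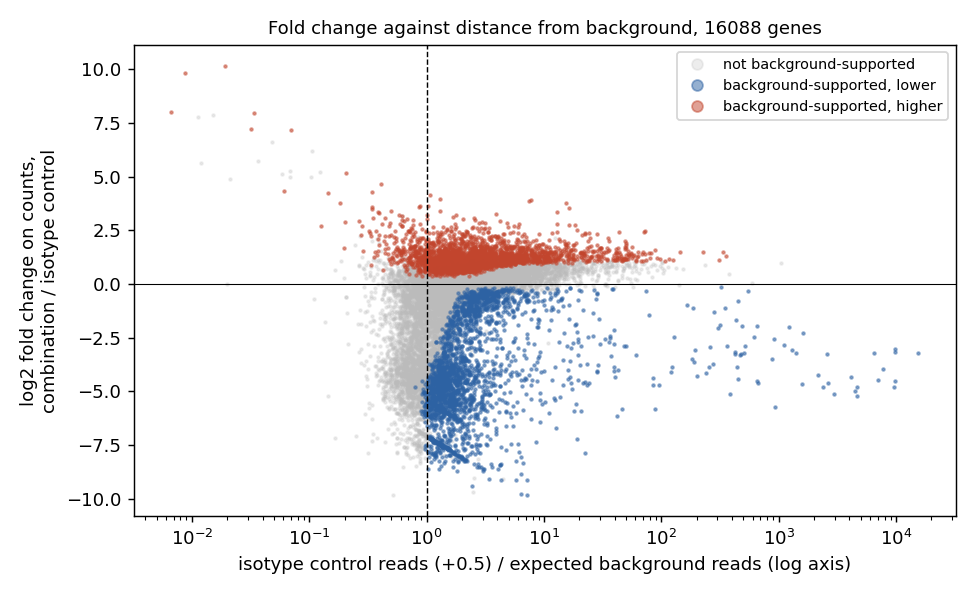
Log2 fold change on the counts (combination over isotype control, y axis) against the isotype reads plus 0.5 divided by the expected background reads (log x axis), for 16088 genes. Red and blue points are the 2451 higher and 2341 lower background-supported calls, grey points the rest, and the dashed line marks reads equal to background; most grey points with strongly negative values lie around that line.

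Among the targets of the antibodies, Cd276 was higher and Pdcd1 was close to the limit of what these libraries could measure. Cd276 lies at chr9:58524298-58555437 on the minus strand (GRCm38, as are all positions given). It held 49.8, 21.5 and 25.3 CPM beyond background in the isotype libraries and 53.8, 55.3 and 48.5 in the combination libraries. The highest isotype library lay above the lowest combination library, and the log2 fold change was 1.23 (SE 0.17, edgeR adjusted p = 2.48e-09) on the counts and 0.63 (SE 0.21, edgeR adjusted p = 0.0138) after subtraction. The rise of Cd276 was background-supported in 18 of the 21 settings. Pdcd1 held 7 isotype reads in all, under the 17.9 expected from background, and 36 combination reads against 1.69 expected. The difference in Pdcd1 counts did not pass the test (log2 fold change 0.64, SE 0.62, edgeR adjusted p = 0.355). After subtraction every isotype library stood at 0 and the edgeR adjusted p of Pdcd1 was 0.039.

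Both ligand genes of PD1 rose. Cd274 held 32 isotype reads with 18.0 expected and 248 combination reads with 1.70 expected, or 7.59 ± 4.41 against 19.6 ± 0.425 CPM beyond background (SD, n = 3). Its log2 fold change was 1.24 on the counts and 1.46 after subtraction (edgeR adjusted p = 0.00294), supported in 19 of the 21 settings. Pdcd1lg2 went from 5.10 ± 2.43 to 16.4 ± 0.687, with log2 fold changes of 1.34 and 1.69. In both genes each combination library lay above each isotype library. Among 9 other tested B7 family members and checkpoint ligands or their partners, 5 rose with background support and none fell. Lgals9, which encodes galectin-9, a ligand of Tim-3, went from 13.9 ± 2.31 to 34.0 ± 5.58, and Vsir, which encodes the inhibitory ligand VISTA, from 19.7 ± 6.26 to 45.1 ± 3.55.

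Cd47, which encodes the surface signal that restrains phagocytosis, and Sirpa, its receptor on macrophages, rose too. Cd47 stood at 48.5, 73.3 and 56.9 in the isotype libraries and at 109, 112 and 98.0 in the combination libraries, a log2 fold change of 1.58 on the counts and 0.86 after subtraction (edgeR adjusted p = 1.67e-06). Sirpa stood at 45.9, 32.2 and 42.7 against 126, 125 and 112, a log2 fold change of 2.05 and 1.56 (edgeR adjusted p = 9.12e-13). The groups did not overlap for either gene. Ctnnb1, which encodes beta-catenin, was called higher on the counts (0.88), but its levels were 432 ± 34.9 and 433 ± 15.6 beyond background and its log2 fold change after subtraction was -0.00 (SE 0.06), so its call was not supported.

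The genes of antigen presentation on MHC class I rose as a group. All 20 listed genes were tested, and all 20 rose with background support in each setting that tested them, beside 15.2% of all genes. Their median log2 fold change was 2.43 on the counts and 2.56 after subtraction, against medians of 0.02 and 0.12 over all genes tested. Only 9 of the 20 were above background in the isotype group, whereas all 20 were in the combination group. The median after subtraction therefore rests in part on isotype levels near background. H2-K1 (chr17:33996017-34000347, minus strand), a classical heavy chain that presents peptides to CD8+ T cells, held 77.8, 62.6 and 79.0 CPM beyond background in the isotype libraries and 627, 652 and 645 in the combination libraries. H2-D1, the other classical heavy chain gene of this strain, went from 183 ± 18.1 to 1158 ± 45.6, and B2m, which encodes the shared light chain, from 265 ± 24.1 to 743 ± 10.9. Log2 fold changes after subtraction were 3.12 (SE 0.08), 2.65 (SE 0.06) and 1.49 (SE 0.06) for H2-K1, H2-D1 and B2m. On the counts they were 3.86, 3.52 and 2.43, and no library overlapped between the groups for any of the 3. Heavy chain genes are close copies of each other, and reads could be divided between them in ways the files do not show.

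The peptide supply genes rose along with the heavy chains. Psmb8, an inducible catalytic subunit of the immunoproteasome, went from 19.0 ± 11 to 98.3 ± 5.50, and Psmb9, another one, from 3.81 ± 3.35 to 27.2 ± 4.91. Tap1, a subunit of the peptide transporter of the endoplasmic reticulum, had isotype values of 33.2, 0 and 33.2 and combination values of 125, 116 and 125. Nlrc5, the transactivator of class I genes, held 117 isotype reads with 118 expected and 1569 combination reads with 11.2 expected, so that it was at background in the isotype group and well above it in every combination library.

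**Figure D3:**
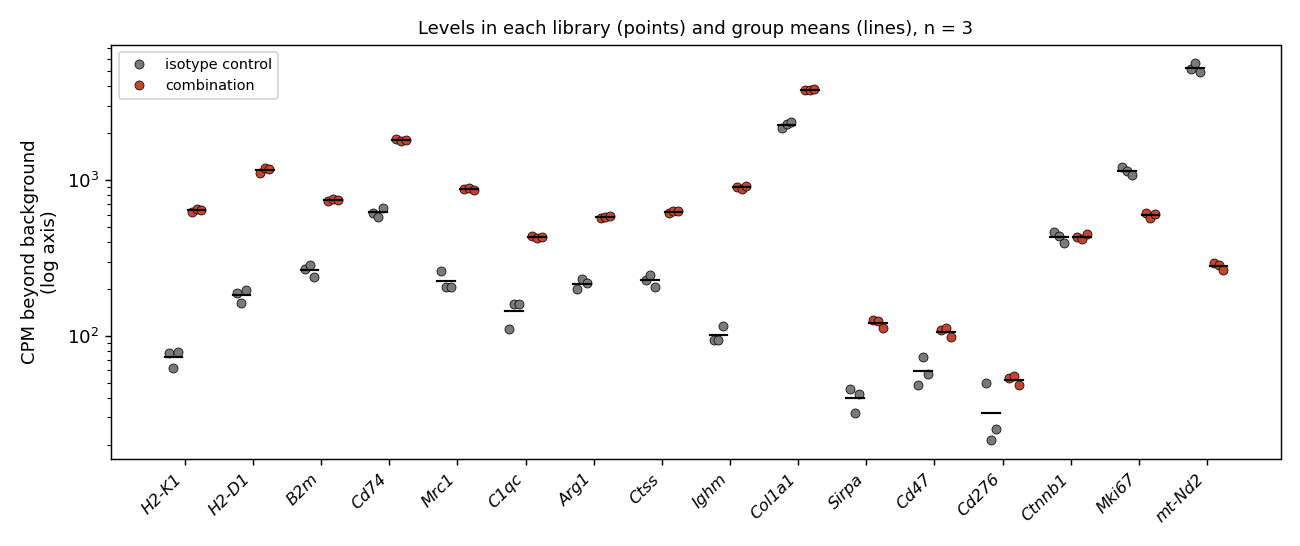
CPM beyond background (log y axis) of 16 genes in 3 isotype (grey) and 3 combination (red) libraries; points are libraries and lines group means. H2-K1 rose from 73.1 to 642 on average, Ctnnb1 stood at 432 and 433, and mt-Nd2 fell from 5228 to 281.

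MHC class II genes, which professional antigen-presenting cells use to show peptides to CD4+ T cells, rose in 7 of 9 tested members, all 7 in each setting that tested them, and none fell with support. Cd74, the invariant chain, went from 616, 579 and 665 to 1839, 1773 and 1811. H2-Aa went from 138 ± 12.6 to 499 ± 8.22, H2-Ab1 from 127 ± 25.9 to 470 ± 10.8 and H2-Eb1 from 107 ± 5.15 to 419 ± 6.00. These 3 chains had log2 fold changes after subtraction between 1.85 and 1.97, and none of their libraries overlapped between groups. Ciita, the master regulator of class II genes, held 73 isotype reads with 71.4 expected and 698 combination reads with 6.75 expected. H2-Eb2 was at background in both groups.

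Interferon gamma response genes rose in 19 of 22 tested members with background support, 16 of them in each setting that tested them, and 1 fell. Of the 23 listed, 6 were above background in the isotype group and 22 in the combination group, so many isotype levels were near background. Irf1, a transcription factor of this response, went from 8.28 ± 4.10 to 53.1 ± 1.75, and Gbp2, a guanylate-binding protein, from 34.2 ± 7.96 to 166 ± 7.96. The receptor and kinase genes had smaller values: Ifngr1 had a log2 fold change after subtraction of 1.01 and Jak1 of 0.55. Cxcl9, which draws T cells through Cxcr3, was near background in the isotype group, with 12 reads where 7.84 were expected, and held 125 reads in the combination group. Ido1 stayed at background in both groups, and Ifng itself did too.

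The one member of that list that fell was Gbp5 (chr3:142493978-142522344, plus strand). It held 1980, 1784 and 1646 isotype reads and 343, 300 and 397 combination reads, with 44.8 expected from background in the isotype group as a whole. The isotype reads of Gbp5 were 121 times the expected number, and whether they are of Gbp5 transcripts was not tested. The same limit is given below for the read-rich genes that fell. The log2 fold change of Gbp5 was -4.09 on the counts and -5.05 after subtraction, opposite to Gbp2, Gbp3, Gbp4, Gbp6 and Gbp7. Gbp5 alone carried enough isotype reads to make the summed level of the list higher in the isotype group, with 3153 to 3646 CPM beyond background against 1586 to 1605.

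On the counts, the largest rise of any gene taken by the naming rule was that of Ifi47 (chr11:49076587-49096974, plus strand), an immunity-related GTPase. It held 0 reads in each isotype library, where 26.0 would have been expected from background in all, and 180, 162 and 180 in the combination libraries. Its log2 fold change was 10.15 on the counts, whereas after subtraction Tgtp2, another GTPase of the family, had a larger value (10.68) than Ifi47. With the isotype group set at a floor of 3 reads over its libraries, Ifi47 was at least 53.4-fold higher. Ifi47 overlaps Olfr56 on the same strand, which held 32 isotype and 0 combination reads, so how reads were divided between the pair bears on this value. Other genes named that overlap a neighbour on the same strand include Gbp4, Gbp6, Igtp, Clec9a, Irf8, Klrb1c, Myd88, L1cam and mt-Nd4. Those that overlap one on the opposite strand include Ctnnb1, B2m, Tap1, Psmb9, Ciita, Jak1, Irf7, Csf1r, Ctsb, Vsir, Tnfrsf9, Foxp3, Ccl2, Ccl19, Mmp12, Acta1, Muc4, Pmel, Lgr5, Junb, Tgtp2 and mt-Nd5. Reads of such pairs may not be told apart, since strand use is not stated. A read number under 0.5 times an expected background of 10 or more was seen in the isotype group for 342 genes, of which 45 were among the supported rises, and the cause was not tested.

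Promoters of interferon gamma response genes held the core letters of the interferon-stimulated response element (ISRE), GAAANNGAA on either strand, more often than promoters at large. In the RefSeq promoter table (GRCm38.p6, 250 bases before to 50 after the start), 18 of the 23 listed genes had an entry and 12 of them (66.7%) held it, against 9.76% of the 27025 genes of the table. The gamma-activated site (GAS), TTCNNNGAA, was in 6 of the 18 (33.3%) against 9.55%. The type I interferon list held the ISRE core in 11 of 18 genes (61.1%) and the MHC class I list in 5 of 17 (29.4%). Sequences follow for the genes with the largest supported change of the interferon gamma and class I lists, Ifi47 and H2-K1, neither of which has these letters in the window, and for Igtp and Gbp7, chosen after their values were seen because their promoters hold both motifs. Capitals mark GAS and ISRE letters. Only these exact letters were searched, so their absence does not mean that a window lacks either element. The H2-K1 window holds tttcacttc, which differs from the ISRE letters in order and was not counted. The windows are chr11:49076337-49076636 on the plus strand for Ifi47, chr17:34000298-34000597 on the minus strand for 1 of 2 starts of H2-K1, chr11:58199306-58199605 on the plus strand for Igtp and chr3:142530086-142530385 on the plus strand for Gbp7.
Ifi47: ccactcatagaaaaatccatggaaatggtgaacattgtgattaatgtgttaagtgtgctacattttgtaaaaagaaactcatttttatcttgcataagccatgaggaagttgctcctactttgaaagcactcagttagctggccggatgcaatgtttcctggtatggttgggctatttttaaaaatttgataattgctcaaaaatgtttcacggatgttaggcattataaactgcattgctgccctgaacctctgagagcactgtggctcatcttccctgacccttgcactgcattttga
H2-K1: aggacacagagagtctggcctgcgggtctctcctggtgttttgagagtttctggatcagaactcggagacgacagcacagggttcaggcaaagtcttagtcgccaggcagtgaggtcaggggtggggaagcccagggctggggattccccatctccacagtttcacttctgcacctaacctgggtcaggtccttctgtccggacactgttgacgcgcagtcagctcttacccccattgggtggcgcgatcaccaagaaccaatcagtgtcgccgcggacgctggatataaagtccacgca
Igtp: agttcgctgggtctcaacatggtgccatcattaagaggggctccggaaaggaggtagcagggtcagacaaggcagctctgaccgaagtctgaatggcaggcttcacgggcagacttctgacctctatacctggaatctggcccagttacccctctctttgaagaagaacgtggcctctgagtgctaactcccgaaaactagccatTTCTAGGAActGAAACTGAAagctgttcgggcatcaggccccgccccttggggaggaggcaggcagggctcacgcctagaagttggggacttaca
Gbp7: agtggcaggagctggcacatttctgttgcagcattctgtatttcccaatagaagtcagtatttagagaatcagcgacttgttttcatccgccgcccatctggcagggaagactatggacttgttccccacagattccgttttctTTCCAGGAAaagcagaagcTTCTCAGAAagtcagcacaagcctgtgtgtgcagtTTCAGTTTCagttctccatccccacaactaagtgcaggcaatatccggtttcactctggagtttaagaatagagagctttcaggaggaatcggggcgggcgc

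In Igtp the GAS letters lay at bases 206 to 214 of the window and the ISRE letters at 217 to 225. Igtp rose from 11.3 ± 5.62 to 35.1 ± 0.864 CPM beyond background, a log2 fold change of 1.53 on the counts and 1.72 after subtraction. Gbp7, with GAS letters at 145 to 153 and 164 to 172 and ISRE letters at 199 to 207, rose from 19.3 ± 5.51 to 71.8 ± 6.98, with log2 fold changes of 1.85 and 1.94. Gbp5, which fell, also holds both motifs in its promoter window. A match of letters is a description and not a site of binding.

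Type I interferon response genes, the antiviral set that interferon alpha and beta induce, rose in 10 of 24 tested members, 6 of them in each setting that tested them, and none fell with support. Their median log2 fold change on the counts was 0.62. Isg15, a ubiquitin-like modifier, went from 3.72 ± 2.53 to 18.6 ± 1.88, Irf7, a transcription factor that amplifies the response, from 1.12 ± 0.978 to 22.9 ± 2.98, and Zbp1, a nucleic acid sensor, from 3.03 ± 1.53 to 31.8 ± 3.93. Only 3 members of the list were above background in the isotype group, whereas all 24 were in the combination group, beside 28.6% and 79.5% of all genes tested. Myd88 and 9 receptors rose among 17 pattern recognition genes, including Clec7a, a receptor for fungal glucans, from 9.60 ± 4.97 to 41.5 ± 3.83.

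Macrophage markers rose in 16 of 19 tested members, 15 of them in each setting that tested them. The summed level of the list was 1744 to 1855 CPM beyond background in the isotype libraries and 4965 to 5026 in the combination libraries. Fewer cells of a type and less RNA per cell cannot be told apart in bulk tissue, here or in what follows. Csf1r, the receptor for the macrophage growth factor, held 166, 202 and 169 against 544, 500 and 544. Apoe, a lipid carrier that macrophages secrete, went from 414 ± 6.69 to 1179 ± 30.1, Adgre1, which encodes F4/80, from 36.4 ± 10.5 to 131 ± 3.26, and C1qc, a chain of complement C1q, from 144 ± 28.4 to 431 ± 5.50. Their log2 fold changes after subtraction lay between 1.51 and 1.82. Cd68, a lysosomal protein of macrophages, was called on the counts (1.03) but not after subtraction (0.36, edgeR adjusted p = 0.0871), and Marco and Timd4 were at background in both groups.

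Genes tied to alternative activation of macrophages rose in 12 of 14 members, each of the 12 in every setting that tested it. Mrc1, the mannose receptor, had 260, 207 and 207 in the isotype and 872, 885 and 868 in the combination libraries, and Arg1, the arginase that depletes arginine, 200, 231 and 220 against 574, 581 and 587. Log2 fold changes after subtraction were 1.94 (SE 0.06) for Mrc1 and 1.43 (SE 0.06) for Arg1. Ccl24, an eosinophil attractant, went from 19.4 ± 1.84 to 82.0 ± 3.77. Retnla rose only on the counts (1.06) and was 62.2 ± 29.0 against 71.4 ± 4.84 beyond background. Il10 was called lower, from 23 reads with 11.1 expected to 6 reads with 1.04 expected, did not pass the background criterion in either group, and was supported in 15 of the 21 settings.

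Fc receptor genes rose in 6 of 7 tested members, each of the 6 in every setting that tested it. Fcgr2b, the inhibitory receptor for IgG, went from 106 ± 7.84 to 244 ± 4.02, and Fcgr3, an activating one, from 49.1 ± 8.94 to 136 ± 3.0. Fcgr4, which binds IgG2 classes, held 17 isotype reads with 15.4 expected and 216 combination reads with 1.46 expected, and Fcgr1, the high-affinity receptor, 26 with 25 expected and 301 with 2.36 expected. Both of these were at background in the isotype group only. Lysosomal protease genes rose in 12 of 15 members, again in every setting: Ctss, the protease that trims the invariant chain, went from 228 ± 19.9 to 628 ± 8.18, and Ctsb from 370 ± 26.1 to 795 ± 7.71. Log2 fold changes after subtraction were 1.47 for Ctss and 1.09 for Ctsb.

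Complement genes rose in 11 of 18 members and none fell with support. C3, the central component, went from 63.8, 87.6 and 88.5 to 577, 560 and 547, a log2 fold change of 2.84 after subtraction (SE 0.08). Chemokine genes rose in 9 of 17 tested members and 1 fell. Ccl8, a ligand for receptors of monocytes and T cells, went from 45.9, 37.5 and 45.8 to 325, 332 and 329, a log2 fold change of 2.92, and Ccl2, the main attractant of inflammatory monocytes, from 12.4 ± 6.81 to 29.4 ± 4.61. Ccl19, which guides cells through Ccr7, was lower, with 39 isotype reads (7.23 expected) and 2 combination reads. Of 11 tested chemokine receptor genes, 6 rose and none fell with support. None of the 12 listed was above background in the isotype group, whereas 11 were in the combination group. Ccr2, the receptor of inflammatory monocytes, went from 9.28 ± 8.15 to 34.8 ± 1.34, with 42 isotype reads in all and 23.1 expected.

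Supported calls among monocyte and neutrophil genes went in both directions. Of 9 tested monocyte markers 6 rose and Nr4a1, a factor of patrolling monocytes and an immediate early gene, fell from 86.4 ± 14.9 to 29.5 ± 2.83. Ly6c2 and Plac8 held 1 and 3 isotype reads and 51 and 109 combination reads. Of 7 tested neutrophil markers Mmp9, a gelatinase, rose from 80.9 ± 9.56 to 265 ± 10.3 and Retnlg from 3.69 ± 1.48 to 18.6 ± 1.48. Csf3r, the receptor for the granulocyte growth factor, was called lower, at 42.0 ± 13.2 against 9.81 ± 1.60. With 137 isotype reads and 51.8 expected, Csf3r was not above background in the isotype group, so its fall is not set apart from background. S100a8, S100a9 and Ly6g, which define neutrophils, were at background in both groups.

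T cell genes were close to the measurable limit. The 20 T cell markers together held 176, 173 and 143 isotype reads per library, with 153 expected on average, and 330, 342 and 367 combination reads, with 14.4 expected. None of the 20 was above background in the isotype group and all 20 were in the combination group, so the isotype libraries give no measure of T cell content. Of 19 tested, Trac and Trbc2, constant regions of the T cell receptor chains, were called higher with support, and Cd6 and Cd8b1 lower. These are 2 in each direction, beside 15.2% of all genes higher and 14.6% lower. Trbc2 held 1, 3 and 0 isotype and 30, 31 and 31 combination reads, and Cd8a held 7, 3 and 2 against 13, 15 and 13. Cd8a did not pass the test on the counts (log2 fold change 0.08, edgeR adjusted p = 0.896) or after subtraction (1.65, SE 1.05, edgeR adjusted p = 0.208). The rise of Trac was supported in 17 of the 21 settings, and its call on the counts was lost under DESeq2's Wald test.

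Receptors of activated or exhausted T cells were likewise near background in the isotype group. Tnfrsf9, which encodes 4-1BB, held 16 isotype reads with 15.9 expected and 268 combination reads with 1.5 expected, and was called higher in every setting that tested it. Havcr2, which encodes Tim-3 and is also carried by macrophages and dendritic cells, held 14 with 17.4 expected against 110 with 1.65 expected, and its rise was supported in 16 of the 21 settings. Foxp3, the regulatory T cell factor, held 18 reads with 26.6 expected against 39 with 2.51 expected and did not pass the test on the counts (edgeR adjusted p = 0.241). Of 11 tested natural killer markers 2 rose, Gzma, a granzyme, and Il2rb, and 1, Klrb1c, was called lower, beside 15.2% and 14.6% of all genes. None of the 14 listed was above background in the isotype group, so the fall of Klrb1c is not set apart from background. The receptor genes Klrc2 and Klra8 were at background in both groups. Gzma had 5, 3 and 0 isotype reads and 31, 22 and 45 combination reads.

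Immunoglobulin genes rose, whereas B cell markers were close to background in the isotype group. Of 14 tested plasma cell and immunoglobulin genes 7 rose, each in every setting that tested it. Ighm (chr12:113418558-113422730, minus strand), the IgM heavy chain, held 84, 63 and 83 isotype reads and 3678, 3372 and 4185 combination reads, which is 102 ± 12 against 897 ± 15.6 CPM beyond background. Its log2 fold change was 3.90 on the counts and 3.15 after subtraction (SE 0.07, edgeR adjusted p = 4.74e-34). Igkc, the kappa light chain, went from 40.2 ± 8.85 to 228 ± 6.88, and Jchain, which joins IgM units, from 10 reads with 9.88 expected to 580 with 0.934 expected. Among 9 tested B cell markers none rose with support and 1, Fcrla, was called lower, beside 15.2% and 14.6% of all genes. Of the 12 listed, 0 were above background in the isotype group and 5 in the combination group. The isotype libraries therefore give no measure of B cell content, and the fall of Fcrla is not set apart from background. Ms4a1, Pax5 and Cr2 were at background in both groups.

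Of 12 tested markers of classical dendritic cells, 5 rose and 1, Clec9a, was called lower, beside 15.2% and 14.6% of all genes. None of the 14 listed was above background in the isotype group, and 13 were in the combination group. The isotype libraries therefore give no measure of dendritic cell content, and the fall of Clec9a is not set apart from background. Itgax, which encodes CD11c and is also carried by macrophages, went from 67.7 ± 15.9 to 170 ± 7.51, and Irf8, a factor of dendritic cells and macrophages, from 20.0 ± 14.0 to 49.4 ± 0.363. Clec9a, a marker of cross-presenting dendritic cells, held 45 isotype reads with 16.4 expected and 23 combination reads with 1.55 expected. Xcr1, the other marker of those cells, had 17 and 15 reads and was not tested.

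**Figure D4:**
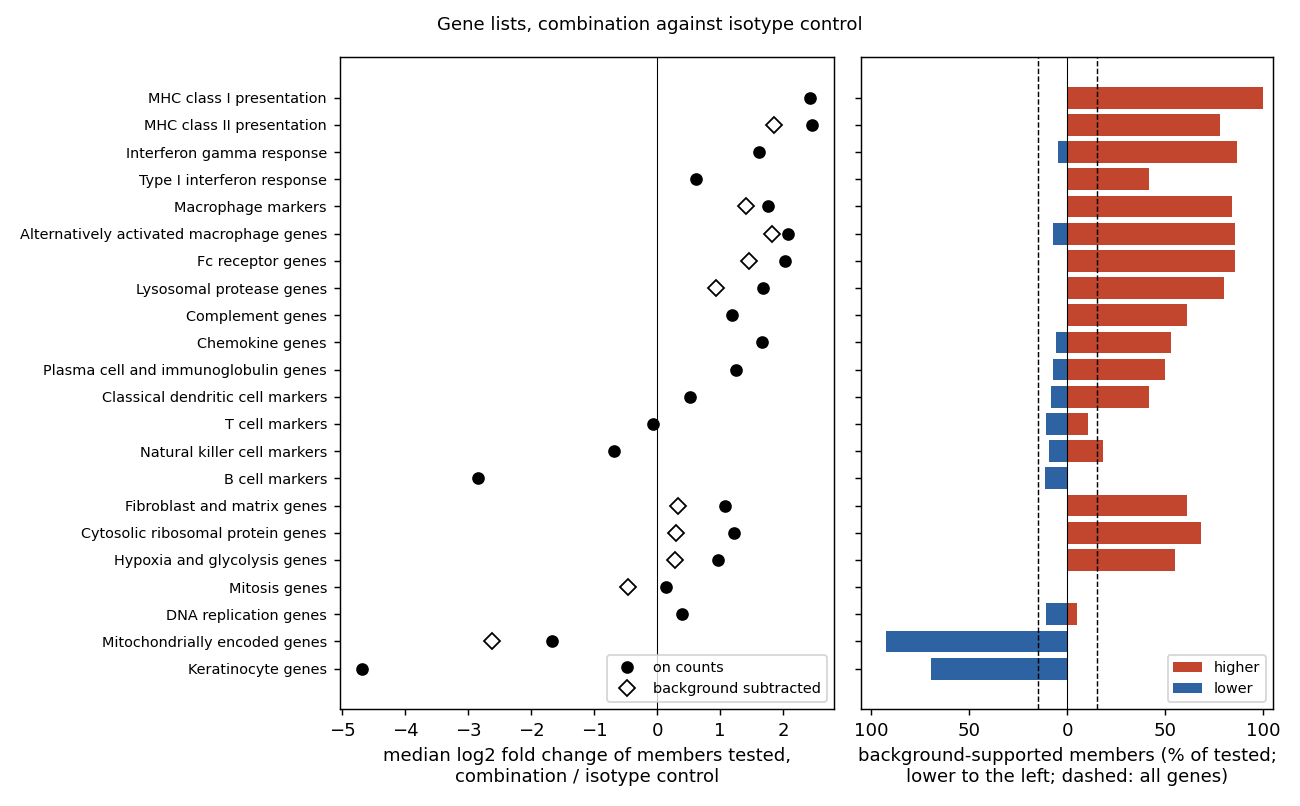
Left, median log2 fold change (combination over isotype control) of the tested members of 22 gene lists on the counts (filled circles) and after background subtraction (diamonds, drawn where at least 50% of members were above isotype background). Right, share of tested members with a background-supported call, higher to the right and lower to the left, with dashed lines at 15.2% and 14.6% for all genes; MHC class I presentation reaches 100% higher, and mitochondrially encoded genes lie furthest to the lower side.

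Fibroblast and matrix genes rose with smaller fold changes. Of 23 tested members 14 rose, 10 of them in each setting that tested them, and the list's median log2 fold change was 1.07 on the counts but 0.33 after subtraction. Col1a1, a chain of type I collagen, went from 2142, 2271 and 2364 to 3761, 3761 and 3844, a log2 fold change of 0.75 (SE 0.04) after subtraction, and Fn1, fibronectin, from 6978 ± 264 to 8337 ± 75.5, a change of 0.26. Postn, periostin, went from 1146 ± 54.1 to 1583 ± 14.2. Of 15 tested matrix metalloproteinases and their inhibitors 7 rose and none fell with support, 3 of the 7 being the inhibitors Timp1, Timp2 and Timp3, and the list's median log2 fold change after subtraction was 0.68. Mmp12, the macrophage elastase, went from 67.1 ± 2.39 to 280 ± 11.7 and Mmp13, a collagenase, from 10.6 ± 5.35 to 113 ± 4.70. The endothelial marker Pecam1 went from 18.5 ± 8.32 to 55.4 ± 3.69, as 1 of 5 supported rises among 15 tested endothelial genes.

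Skeletal muscle genes, which encode the contractile machinery of muscle fibres, rose in 10 of 16 tested members and none fell with support. The 17 listed genes held 900 to 1045 reads per isotype library, with 1080 expected from background on average, and 3968 to 4775 per combination library. Myh4, a fast myosin heavy chain, held 33, 27 and 39 isotype reads and 447, 409 and 517 combination reads, and Acta1, the muscle actin, 16, 22 and 18 against 268, 230 and 326. No muscle gene was above background in the isotype group. The isotype libraries therefore give no measure of muscle content, and the part of muscle in the other results was not tested.

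Keratinocyte genes were lower in 9 of 13 tested members and higher in none. Only 3 of them were above background in the isotype group, where the list held 306 to 386 reads per library with 196 expected, against 128 to 153 in the combination libraries with 18.5 expected. Krt14, a basal keratin, had 27, 19 and 12 isotype reads, 1.94 times the expected number, and 0, 0 and 5 combination reads. Of the lower genes, Krt14, Krt1, Krt5, Krt10, Trp63, Lor and Dsg3 did not meet the background criterion in either group. Their falls are not set apart from background. Of 12 tested pigment cell genes 3 were lower and none higher. Sox10, a factor of melanocytes and Schwann cells, was the single pigment list member well above background in both groups, with 264, 308 and 242 against 90.6, 89.0 and 82.2, and a log2 fold change of -0.74 on the counts and -1.63 after subtraction. Tyr, which encodes tyrosinase, the first enzyme of melanin synthesis, held 42, 16 and 27 isotype reads, 2.58 times the expected number, and 31, 26 and 41 combination reads, with 3.12 expected. It was not above background in the isotype group and was lower with support, with a log2 fold change of -1.49 on the counts and -1.74 after subtraction. Tyrp1, Dct, Mlana and Pmel, which define pigmented melanocytes, did not meet the background criterion in either group, whereas 5 members of the list met it in the combination group. Mitf held 29.9 ± 2.73 and 23.7 ± 3.13 and was not called.

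Mitochondrially encoded genes fell. Of 13 genes, 12 fell with support and none rose, 10 of them in each setting that tested them. Their summed reads were 34832 to 42880 per isotype library and 51477 to 58875 per combination library, while the reads of all genes outside the satellite-like ones went from the 1340782 to 1512937 given above to 2902813 to 3493133. mt-Nd2, a subunit of complex I, had 5129, 5593 and 4961 CPM beyond background in the isotype group and 292, 286 and 264 in the combination group, a log2 fold change of -4.22 (SE 0.06) after subtraction. mt-Cytb had a change of -2.62, mt-Co2 of -1.28 and mt-Co1 of -0.93, and mt-Co1 was not called on the counts (0.03, edgeR adjusted p = 0.697). Genes of the same circular genome thus moved by unequal amounts. mt-Nd2, mt-Nd4, mt-Nd5 and mt-Cytb are among the read-rich genes described next, and whether their isotype reads are of their transcripts was not tested either. Nuclear genes of oxidative phosphorylation did not fall: 10 of 20 rose with support, with a median log2 fold change of 0.27 after subtraction.

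Genes with very many isotype reads formed a group of their own. The 34 genes called lower that held at least 10000 isotype reads took 45.2% to 52.1% of the isotype reads outside the satellite-like genes and 4.43% to 4.51% of those of the combination libraries. Zfp277 (chr12:40315046-40445902, minus strand), a zinc finger gene, held 86094, 86360 and 82868 isotype and 12019, 11372 and 14339 combination reads, and Sirt5 (chr13:43365496-43395203, plus strand), a mitochondrial deacylase, held 140612 and 49918 in all. Predicted genes led the group, Gm21897 (chr16:15317458-15318957, plus strand) first. Each held at least 195 times its expected background, so the Olfr rate does not describe them, and whether the reads are of these genes' transcripts was not tested. When these genes were left out before scaling, the supported calls were 1454 higher and 1688 lower.

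Largest falls outside the predicted genes were those of genes at or near 0 in the combination group. Prol1 held 38, 50 and 34 isotype reads, with 19.3 expected in all, and none in the combination libraries. On the counts, with the combination group at a floor of 3 reads over its libraries, Prol1 was 133-fold lower. That value includes the isotype background, and with background equalised the log2 fold change was -3.48. Muc6, a gastric gel-forming mucin, held 443, 402 and 437 against 1, 2 and 4, with 180 expected from background in the isotype group, and Muc4 and Muc5b, mucins of other epithelia, fell as well. Olfr521 and Olfr635, olfactory receptor genes, were among them too, with 60 and 85 isotype reads against 0 and 1 combination reads and 19.9 isotype reads expected for each, although Olfr genes set the background. Gp1ba, a platelet receptor chain, held 95 isotype reads with 45.4 expected and 1 combination read. The isotype reads were 7.11 times the expected background for Muc6, 2.64 times for Muc4, 2.09 times for Gp1ba and 1.34 times for Muc5b, so of these only Muc6 was above background in the isotype group.

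Genes of cell growth showed how far the choice of scale carries. All 25 cytosolic ribosomal protein genes were called higher on the counts, and 17 with support, while the list's median log2 fold change went from 1.23 to 0.30 after subtraction. Mitosis genes had a median of 0.14 on the counts and -0.47 after subtraction, with 4 of 20 called higher on the counts and none supported in either direction. Mki67, which marks cycling cells, had a log2 fold change of -0.10 on the counts (edgeR adjusted p = 0.102) and -0.94 after subtraction (edgeR adjusted p = 1.18e-20). Both values were below 0, and whether Mki67 was called lower rests on the scale. Histone genes were called higher in 17 of 18 members on the counts and in 1, Hist1h1a, with support. Hypoxia and glycolysis genes had medians of 0.97 and 0.29, with 11 of 20 supported higher, among them Pgk1 (0.58 after subtraction) and Ldha (0.28).

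The beta-catenin pathway list, which covers the complex that destroys beta-catenin and its transcription partners, held no supported rise among 14 members. Tcf7l1 and Tcf7l2, transcription partners of beta-catenin, were lower, which is 2 of 14 beside 14.6% of all genes. Tcf7l1 went from 45.9, 69.7 and 19.0 to 10.3, 9.92 and 8.70, with no overlap between the groups. The call of Tcf7l2 (log2 fold change -0.45 on the counts) was lost without combination replicate 2, without combination replicate 3 or without isotype replicate 1, where it was -0.23, -0.35 and -0.31. Among 14 tested Wnt targets Cd44, a surface receptor for hyaluronan, rose from 146 ± 19.3 to 206 ± 11.1, and Lgr5 and Sp5 were called lower while at background in both groups, Lgr5 with support in 9 of the 21 settings. Apc went from 279 ± 27.9 to 184 ± 4.17 beyond background but was not called on the counts (-0.04, edgeR adjusted p = 0.597).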

How the data were processed

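The authors deposited 1 table per library in which reads had been assigned to transcripts as estimated counts, with effective lengths and TPM, per the file headers. Only the counts and lengths were used. The submitters' processing notes name FastQC 0.11.8 and GRCm38. The aligner, quantifier and use of strand are not given in the sources used here. Counts were summed per gene over 57473 of 58083 listed transcripts, most of them of coding length, and rounded; 610 did not match, with 1.37% of isotype and 0.403% of combination reads outside 12 satellite-like genes, which were left out. All 12 libraries were fitted together with edgeR 4.0.16 (quasi-likelihood, robust, TMM scaling, default expression filter, Benjamini-Hochberg adjustment; R 4.3.3), and scripts were tested on simulated data. Total reads were 15585622 to 21298142 per isotype and 4409772 to 5014931 per combination library, so low genes carry large counting error. Replicates of the combination group differed little more than by counting error (median chi-square per gene 0.547 to 0.576, isotype 0.690 to 0.941). Genes named were the antibody targets and series genes, the 15 largest supported changes in each direction, the 8 with most reads, up to 3 per list and, by name, members at background; others were picked for their roles after their values were seen. The gene lists and members were chosen with earlier results of these data known. Alternatives were DESeq2 1.42.0, other scalings, filters and backgrounds, a replicate block and leaving out each library. Some genes of the lists are not reported here by name.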

Additional observations from a re-analysis of the deposited data

How the results depend on the processing

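No background-supported call changed direction in any setting. On the counts, genes called higher and lower numbered 3541 and 6698 with DESeq2's Wald test (34.6% of calls higher, against 48.6% with edgeR), 3718 and 6842 with DESeq2's size factors (35.2%), 3691 and 3250 after background subtraction, 3593 and 3752 with background equalised, 6962 and 9517 without the filter, and 1997 and 5049 when a change of at least 2-fold was also asked. Among genes above background in both groups alone they were 1302 and 1345, with 1059 and 1075 supported; these were chosen partly by their counts. Supported calls numbered 1848 and 1368 with the satellite-like genes kept, and 1454 and 1688 without the read-rich lower genes, a setting added after seeing the data. With Olfr93 and Olfr1055 left out of the background, also an unplanned setting, they numbered 2996 and 3092. Leaving out each library in turn gave 5258 to 5859 higher and 5869 to 6691 lower, with 2110 to 2349 and 1883 to 2271 supported. Among the 183 genes that the naming rule took, Ctnnb1 alone changed sign, at -0.0018 after subtraction and -0.065 with all chemoreceptor genes as background; outside them, mt-Co1 went from 0.03 on the counts to -0.93 after subtraction. The replicate block gave 5476 higher and 5781 lower. Correlations of deviations between same-numbered libraries were 0.0138, -0.0115 and -0.0197. No effect shared by number was seen, but replicates differed too little for these values to exclude pairing. Why settings differ was not tested. Genes with fewer isotype reads than background cannot be measured at this depth, and low counts in the combination group limit T, B and natural killer genes.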

Other observations

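Of 15 immediate early genes, which respond early to a stimulus, 1 rose and 3 fell with support, beside 15.2% and 14.6% of all genes. Junb rose from 57.0 ± 5.62 to 134 ± 11 CPM beyond background (SD, n = 3), while Egr1 fell from 101 ± 14.8 to 36.1 ± 1.94 and Egr3 was lower as well. Junb is a transcription factor subunit of AP-1, and Egr1 is a zinc finger factor induced by growth signals. Among unfolded protein and stress genes 5 of 14 rose with support, including Hmox1, which breaks down haem, from 66.0 ± 20.5 to 138 ± 4.76, and none fell.

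Axl, a receptor kinase of dedifferentiated melanoma cells that macrophages carry too, rose from 323 ± 18.3 to 518 ± 10.5, whereas L1cam, an adhesion molecule of neural crest derivatives, fell from 136 ± 4.10 to 49.9 ± 0.955. The cytokine gene Tgfb1 rose from 69.0 ± 20.8 to 137 ± 7.04 and Il1b from 17 reads with 16.7 expected to 218 reads with 1.58 expected. These genes were picked after their values were seen.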
